A study of Homo sapiens with 6 samples.

Results

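Myosins are the motors that pull on actin filaments, and 51 human myosin genes were followed here in leukemia cells with and without induction of the ETS transcription factor ERG. The set was defined by gene symbol, MYH, MYO or MYL followed by a number, for heavy chains, unconventional myosins and light chains annotated as protein-coding. A gene also needed a probe set annotated to it alone. This left out MYO18A, whose probe set is annotated to TIAF1 as well. It held 38 heavy chain genes and 13 light chain genes, read by 108 of the 54613 probe sets of the array and making up 51 of the 19775 genes with a probe set of their own. The cells were K562, a human erythroleukemia line from chronic myeloid leukemia, stably transfected with the pTRE-ERG construct, from which a tet-on system drives ERG when doxycycline (DOX) is given. The ERG-induced group held 3 arrays, of clones CL4, CL9 and CL46 given 1 µg/ml DOX daily for 8 days (6 days in a figure legend of the study), and the non-induced group held 3 arrays of the same clones without DOX. The study compared these groups to characterise the transcription that goes with the spindle shape of ERG-induced cells, which are adherent where K562 cells are round.

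Every induced culture and no other received DOX, so that effects of ERG and of DOX cannot be told apart, and each clone is 1 line with 1 array per group. The main fit ignores the pairing by clone, so its p-values rest on the spread between single arrays of different clones within a group. They do not measure the spread of the differences within clones. ERG itself, over 4 probe sets, had log2 ratios of 0.15, -0.93 and -0.71 in the ERG-induced arrays of CL4, CL9 and CL46, against 1.503, -0.13 and -0.57 in the non-induced arrays (difference -0.76, SE 0.63, limma adjusted p = 0.671). ERG was thus not higher in the arrays labelled ERG-induced. Whether these probe sets read the introduced ERG was not given in the sources used here, and the arrays are named throughout by their labels. The 3 probe sets for ribosomal RNA were higher in the ERG-induced array of every clone, by 1.21 in CL4, 0.59 in CL9 and 0.82 in CL46 on the log2 scale; their part in the results below was not tested.

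Conventional, class II myosins pair heavy chains into a tailed motor that assembles into thick filaments: the sarcomeric forms drive heart and skeletal muscle, and the smooth muscle and non-muscle forms drive contraction and the cell cortex. Unconventional myosins, numbered by class, mostly do not form filaments and carry membranes, vesicles or adhesion receptors along actin. Each heavy chain binds light chains of the calmodulin family on its neck, and in smooth and non-muscle cells phosphorylation of the regulatory light chain switches the motor on. Blood cells express non-muscle MYH9 as their main conventional heavy chain, and sarcomeric heavy chains belong to muscle.

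The promoters of the called myosin genes MYH6 and MYO1F are shown because ERG belongs to the ETS factors, whose binding sites hold the core GGAA. Each is a RefSeq promoter on GRCh38.p14, 300 bases long, of which 250 lie before the annotated start and 50 after it, and capitals mark matches on either strand to GGAAGT or CCGGAA, letters that overlap in the core. The first lies at chr14:23408224-23408523 and the other at chr19:8577393-8577692, both read from the minus strand.
MYH6: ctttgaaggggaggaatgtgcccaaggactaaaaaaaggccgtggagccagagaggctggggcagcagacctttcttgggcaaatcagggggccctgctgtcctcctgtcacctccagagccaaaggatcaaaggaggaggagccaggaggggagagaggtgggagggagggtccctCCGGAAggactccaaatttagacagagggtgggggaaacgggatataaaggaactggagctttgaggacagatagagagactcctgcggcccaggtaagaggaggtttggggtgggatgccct
MYO1F: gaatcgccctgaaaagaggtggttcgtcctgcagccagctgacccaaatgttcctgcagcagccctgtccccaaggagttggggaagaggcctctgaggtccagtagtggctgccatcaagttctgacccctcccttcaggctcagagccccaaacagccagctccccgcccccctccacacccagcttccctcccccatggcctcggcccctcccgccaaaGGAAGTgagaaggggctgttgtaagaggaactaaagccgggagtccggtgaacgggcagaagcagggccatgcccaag
In MYH6 the match CCGGAA began 73 bases before the annotated start, and in MYO1F the match GGAAGT began 28 bases before it. A promoter was held for 40 of the 51 myosin genes. The called genes MYH7 and MYH3 were not among these, so their promoters could not be shown. Of these 40, 5 held GGAAGT (12.5%, MYL12B, MYO1A, MYO1F, MYO1G and MYO7B), against 22.8% of 35116 RefSeq promoters of the same length. The 40 were counted as 1 promoter per gene, while the 35116 were not reduced to 1 per gene. CCGGAA stood in 6 of the 40 (15%, MYH6, MYL1, MYL12B, MYL6B, MYO5A and MYO9B), against 17.2% of all promoters. The CArG box, which the muscle factor SRF binds, stood in 2 of the 40 (MYL7 and MYO1E), against 1.29% of all promoters. Such a match is a run of letters and not a measured site.

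At a fold of at least 2 and an unadjusted p under 0.05, taken from thresholds of the study that do not say whether p was adjusted, 3 myosin genes were called higher and 1 lower in ERG-induced cells. The 3 were MYH6 and MYH7, the alpha and beta heavy chains of cardiac muscle, and MYO1F, a class I myosin of immune cells; the 1 was MYH3, the embryonic skeletal heavy chain. All 4 are heavy chains, and 0 of the 13 light chains were called. As shares, 5.88% of the myosin genes were called higher and 1.96% lower, against 3.12% and 6.32% of all 19775 genes, and 7.84% were called in either direction, against 9.44% of all genes. With limma's p adjusted over all genes, 0 myosin genes and 0.0% of all genes passed 0.05, and at an unadjusted p under 0.05 the same 4 myosin genes of 51 stood against 12.9% of all genes. With the clone as a block in the fit, 4 myosin genes were called higher, with MYO1H added, and 2 lower, MYH3 and MYH16.

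The median log2 difference of the 51 genes, ERG-induced minus non-induced, was -0.085 with arrays scaled as deposited, against -0.029 for all genes; after centring of the arrays these were 0.020 and 0.076, and under quantile normalization 0.12 and 0.11. Of the 51, 25 lay above 0 and 26 below. In 5 genes (MYH6, MYH7, MYO1F, MYO7B and MYL4) all 3 ERG-induced arrays lay above all 3 non-induced arrays, against 7.98% of all genes. In 4 genes (MYH3, MYH9, MYH10 and MYL12B) they lay below, against 13.6% of all genes. The clones gave the same direction in 19 of the 51 genes and in 7943 of all 19775. Values are log2 ratios of a probe set to its own median over the 6 arrays, so they show differences between arrays and cannot rank one gene against another. Brightness was lost in that step, and whether a called value lay near background is unknown.

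**Figure D1:**
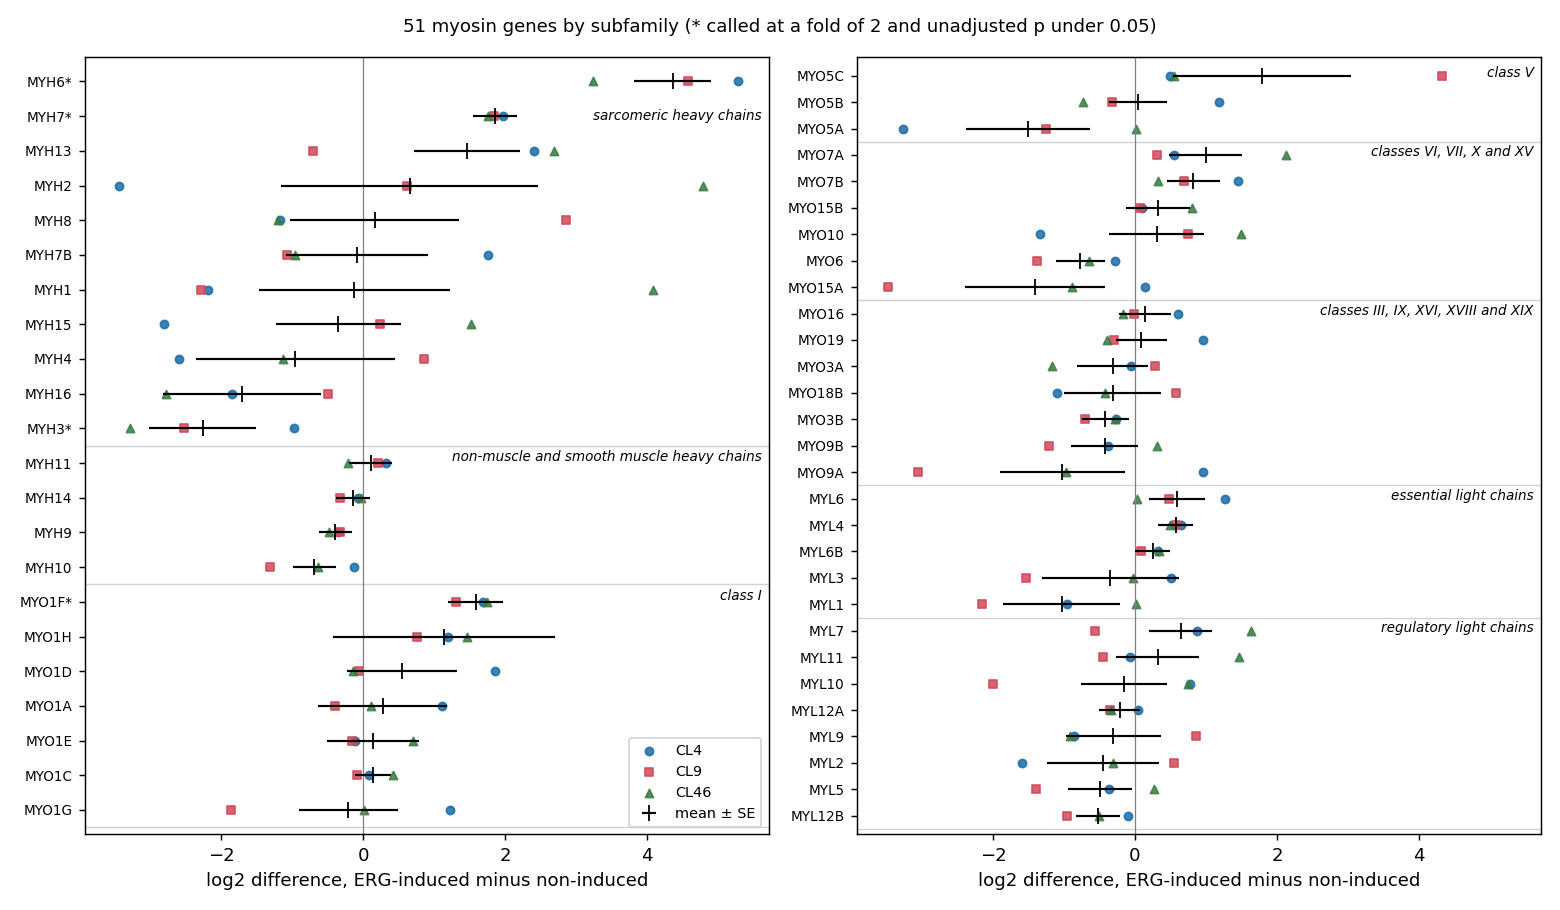
Log2 difference, ERG-induced minus non-induced (x axis), of the 51 myosin genes (y axis), grouped by subfamily, with a point per clone and the mean difference ± its SE from the limma fit without pairing. MYH6 lies farthest to the right, at 4.36, and MYH3 farthest to the left, at -2.26, while the clones of MYH2 spread from -3.44 to 4.79.

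MYH6 had log2 ratios of 0.96, 0.84 and 0.94 in the ERG-induced arrays of CL4, CL9 and CL46, against -4.31, -3.73 and -2.29 in the non-induced arrays. The induced arrays lay within a narrow band and the non-induced arrays spread widely below it. The difference was 5.27, 4.57 and 3.23 in the clones and 4.36 on average (SE 0.54, 20.5-fold, adjusted p = 0.144), the largest of the myosin set. MYH6 was read by 1 probe set, 214468_at, and ranked 31 by p among all 19775 genes. The call remained under all 11 other settings at an unadjusted p that were run, each clone left out included.

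MYH7, the neighbouring and closely similar beta heavy chain, had 0.49, 0.93 and 1.00 in ERG-induced arrays, against -1.47, -0.91 and -0.75 in non-induced arrays. The clones differed by 1.96, 1.84 and 1.76, a range of the clones narrower than in the other called genes, and the mean was 1.85 (SE 0.31, 3.61-fold, adjusted p = 0.192). Its only probe set, 216265_x_at, carries a suffix by which Affymetrix marks probes that may bind similar transcripts. Signal of MYH6 in this probe set and of MYH7 in that of MYH6 was not tested, so the pair is uncertain as separate genes. A further probe set, 204737_s_at, is annotated to both genes and belongs to the array rows left out of the gene values. It had 1.43, 0.88 and 1.31 in ERG-induced arrays, against -3.51, -2.66 and -2.80 in non-induced arrays. Its difference of 4.198 (SE 0.35, adjusted p = 0.112) was close to that of MYH6, and all 3 induced arrays again lay above the rest.

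**Figure D2:**
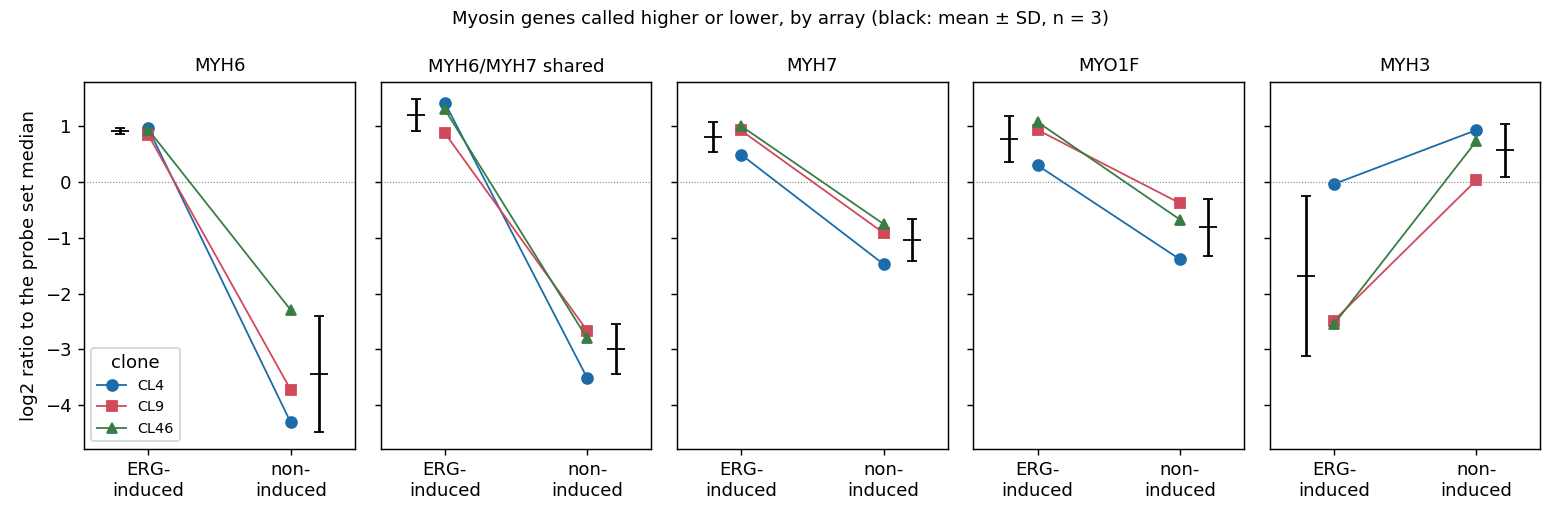
Log2 ratio to the probe set's median (y axis) in ERG-induced and non-induced arrays (x axis) of the 4 called myosin genes and of the probe set shared by MYH6 and MYH7, with a line per clone and the mean ± SD (n = 3) in black. The induced arrays of MYH6 lie between 0.84 and 0.96 and the non-induced arrays between -4.31 and -2.29, and the order is turned round for MYH3.

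MYH6 and MYH7 lie next to each other on chromosome 14. The measured gene beside MYH6 was CMTM5, a chemokine-like membrane protein that the study lists as over-expressed from these same arrays. It differed by 2.07, 3.05 and 2.83 in the clones (mean 2.65, SE 0.58, limma adjusted p = 0.211), and it was called higher. Next to CMTM5, IL25, a cytokine, was called lower at -2.08 (SE 0.55, adjusted p = 0.256). On the side of MYH7, NGDN and THTPA were not called, at 0.0098 and 0.015. Beyond THTPA, ZFHX2 stood at -0.17, AP1G2 at 1.39 and AP1G2-AS1 at -0.050, none called. The clones of AP1G2 gave 2.76, -0.87 and 2.28. On the other side, beyond IL25, EFS stood at 0.97, SLC22A17 at -0.062 and PABPN1 at -0.36, none called. The neighbours were looked at because MYH6 and MYH7 had been called, and of the other 10 measured genes in this stretch 2 were called, against 9.44% of all genes.

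**Figure D3:**
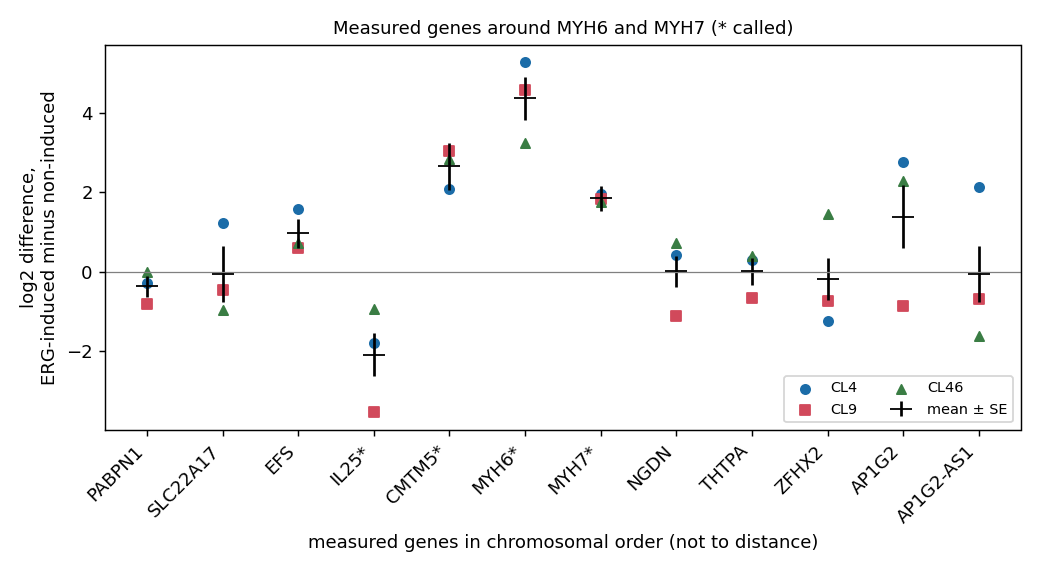
Log2 difference, ERG-induced minus non-induced (y axis), of measured genes in their order along chromosome 14 (x axis, not to distance), with a point per clone and the mean difference ± SE of the fit. CMTM5, MYH6 and MYH7 stand side by side at 2.65, 4.36 and 1.85, with IL25 at -2.08 on one side and NGDN at 0.0098 on the other.

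MYH3 had log2 ratios of -0.035, -2.48 and -2.55 in the ERG-induced arrays of CL4, CL9 and CL46, against 0.93, 0.034 and 0.74 in the non-induced arrays. The groups did not overlap, but the gap between them was narrow, since the induced array of CL4 and the non-induced array of CL9 nearly met. The mean difference was -2.26 (SE 0.75, 4.78-fold lower, adjusted p = 0.321), from -0.97, -2.52 and -3.28 in the clones. The call was lost without CL9 (-2.13) and without CL46 (-1.74), and also without moderation of the variances. An exact permutation test of the array values, two-sided, gave p = 0.1 for each of MYH6, MYH7, MYO1F and MYH3. This is the smallest that 3 arrays against 3 allow. The groups did not overlap in any of these called genes, which fixed this p in advance, so it adds nothing to the calls.

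MYH3 belongs to a row of skeletal heavy chain genes on chromosome 17, measured in the order MYH13, MYH8, MYH4, MYH1, MYH2 and MYH3. The other 5 genes of the row were not called. MYH13, the extraocular form, differed by 2.40, -0.70 and 2.69 in the clones (mean 1.46, SE 0.75). MYH8, the perinatal form, stood at 0.16 (SE 1.19), and the adult fast forms MYH4, MYH1 and MYH2 at -0.95, -0.13 and 0.65. For MYH2 the clones gave -3.44, 0.61 and 4.79, the widest range of the 51 genes. The ends of that range came from single low arrays, at -3.44 in the ERG-induced array of CL4 and -4.79 in the non-induced array of CL46. The median SE was 1.00 over the 11 sarcomeric heavy chains, against 0.45 over all genes and 0.27 over the 4 smooth muscle and non-muscle heavy chains. Most of the 11 rested on 1 probe set, as did MYH9, whose SE of 0.23 was the lowest of the 51 genes. MYH11 and MYH14 were means over 7 and 6 probe sets. The part of this averaging in the SE was not tested.

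The remaining sarcomeric heavy chains were MYH7B, MYH15 and MYH16, of which MYH15 stood at -0.35 (SE 0.88). MYH16, a jaw muscle heavy chain that is disrupted in humans, differed by -1.84, -0.49 and -2.77 (mean -1.70, SE 1.11, adjusted p = 0.59), with overlapping groups. With the clone as a block its SE was 0.54 and it was called lower (adjusted p = 0.373). MYH7B, a slow muscle heavy chain, stood at -0.085 as the mean of a pair of probe sets that lay on either side of 0. The probe set 233949_s_at was called lower, at -2.32 (SE 0.77), with -0.19, -3.05 and -2.19 in ERG-induced arrays and 0.89, 0.47 and 0.17 in non-induced arrays. The probe set 215795_at was not called, at 2.15 (SE 1.59), with 4.61 in CL4 and 0.46 in CL46. The direction of the MYH7B mean turned with the scaling of the arrays, to 0.020 when centred and 0.12 under quantile normalization.

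Of the 4 heavy chains of smooth muscle and non-muscle cells, 0 were called. MYH9, non-muscle myosin IIA, had -0.051, -0.28 and -0.33 in ERG-induced arrays, against 0.30, 0.049 and 0.15 in non-induced arrays. All 3 induced arrays lay below the non-induced ones, at a mean difference of -0.39 (SE 0.23, adjusted p = 0.557). MYH10, non-muscle myosin IIB, had the largest difference of the 4, with -0.10, -0.82 and -0.28 in ERG-induced arrays, against 0.03, 0.48 and 0.36 in non-induced arrays (mean difference -0.69, SE 0.30, adjusted p = 0.42). Its probe set 212372_at passed an unadjusted p under 0.05 at -0.76 but not the fold of 2. MYH14, non-muscle myosin IIC, stood at -0.15 (SE 0.24). MYH11, the smooth muscle heavy chain, had the smallest difference, 0.10 (SE 0.30) over 7 probe sets that ranged from -1.56 to 1.71.

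Class I myosins are single-headed motors that link membranes to actin, and 1 of the 7 measured was called. This was MYO1F, which the study lists as over-expressed from these same arrays. It had log2 ratios of 0.30, 0.94 and 1.08 in the ERG-induced arrays of CL4, CL9 and CL46. In the non-induced arrays the ratios were -1.39, -0.38 and -0.67. Each clone moved up by a similar step, 1.69, 1.31 and 1.75 (mean 1.58, SE 0.38, adjusted p = 0.235), and the groups did not overlap. The call was lost only without CL46, where the difference was 1.501. Its measured neighbours on chromosome 19, ZNF414 and ADAMTS10, stood at 0.15 and -1.06 and were not called.

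MYO1G, another class I myosin of blood cells, was read by a pair of probe sets called in opposite directions. The probe set 227799_at had 1.71, -0.63 and 1.88 in ERG-induced arrays, against -1.03, -0.85 and -0.92 in non-induced arrays, and was called higher at 1.92 (SE 0.72). The probe set 244654_at had 0.0019, -3.17 and -2.79 in ERG-induced arrays, against 0.30, 0.77 and -0.0019 in non-induced arrays, and was called lower at -2.34 (SE 0.90). Their mean of -0.21 (SE 0.70) therefore describes neither. MYO1H stood at 1.14, with 1.19, 0.76 and 1.46 in the clones, but its levels differed so much between clones that the SE was 1.56; with the clone as a block it was called higher. MYO1D, MYO1A, MYO1E and MYO1C lay between 0.14 and 0.55 and were not called.

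Class V myosins carry vesicles and organelles over long distances, and 0 of the 3 were called as genes. MYO5A, which moves melanosomes and other vesicles, stood at -1.51 (SE 0.87, adjusted p = 0.537), with clone differences of -3.27, -1.26 and 0.0080. Of its 4 probe sets, 227761_at was called lower at -4.05 (SE 1.59), with -5.65, -4.46 and 0.15 in ERG-induced arrays and 0.47, -0.16 and 1.87 in non-induced arrays. The other 3 were not called, and 241966_at stood at -0.042. MYO5C, an epithelial form, had the largest mean of the class, 1.79 (SE 1.25), with 4.33 in CL9 and only 0.49 and 0.55 in CL4 and CL46. That value came from the non-induced array of CL9, at -4.49. MYO5B, a recycling endosome motor, had the smallest difference, 0.040 (SE 0.41).

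Among classes VI, VII, X and XV, 0 of 6 genes were called. MYO6, the motor that moves toward the minus end of actin filaments, stood at -0.77 (SE 0.34, adjusted p = 0.426) and below 0 in all clones, with 203216_s_at at -0.98 just under the fold of 2. MYO7A and MYO7B, motors of stereocilia and microvilli, stood at 0.99 (SE 0.52) and 0.82 (SE 0.38) and above 0 in all clones. For MYO7B the ERG-induced arrays at 0.82, -0.27 and -0.019 all lay above the non-induced arrays at -0.63, -0.95 and -0.35 (adjusted p = 0.437). MYO15A, a stereocilia motor, had the largest difference, -1.40 (SE 0.99), with 0.15, -3.48 and -0.88 in the clones. MYO10, the filopodial motor, stood at 0.30 (SE 0.67), with clone differences of -1.34, 0.75 and 1.498, and MYO15B at 0.32 (SE 0.45).

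Of the 7 genes of classes III, IX, XVI, XVIII and XIX, 0 were called, and 5 lay below 0. MYO9A, a myosin with a RhoGAP domain, had the largest difference, -1.02 (SE 0.88), with 0.96, -3.05 and -0.97 in the clones. Its probe set 226203_at was called lower at -1.66 (SE 0.50) and lay below 0 in all clones, with 219027_s_at at -0.93 and 242512_at at -0.48 uncalled. MYO3B, at -0.42 (SE 0.33), was called lower in 1 of 3 probe sets, 1555257_a_at, at -2.65 (SE 0.73). Its probe sets 1552578_a_at at 0.013 and 1560788_at at 1.39 were uncalled. MYO16 was called higher in 1 of its pair, 215119_at, at 1.11 (SE 0.44), while 1557720_s_at stood at -0.83. MYO3A, MYO18B and MYO9B stood at -0.31, -0.31 and -0.43. MYO19, the mitochondrial myosin, had the smallest difference of the group, 0.087 (SE 0.36). The probe set annotated to both MYO18A and TIAF1, outside the gene values, stood at 0.21 (SE 0.27) and was not called.

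Over single probe sets, 5 of the 108 were called higher and 6 lower, 4.63% and 5.56%, against 2.82% and 8.16% of all 54613, and 10.2% in either direction against 11.0%. Of the 108, 10 had ERG-induced arrays all above the non-induced ones, against 7.14% of all probe sets, and 10 all below, against 15.1%. At an unadjusted p under 0.05 were 13 of the 108, against 13.1% of all probe sets, and 0 of the 108 and 0.0% of all passed an adjusted 0.05. Of the 51 genes, 26 had several probe sets, and in 15 of these the probe sets lay on both sides of 0. All 4 called genes rested on 1 probe set each.

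**Figure D4:**
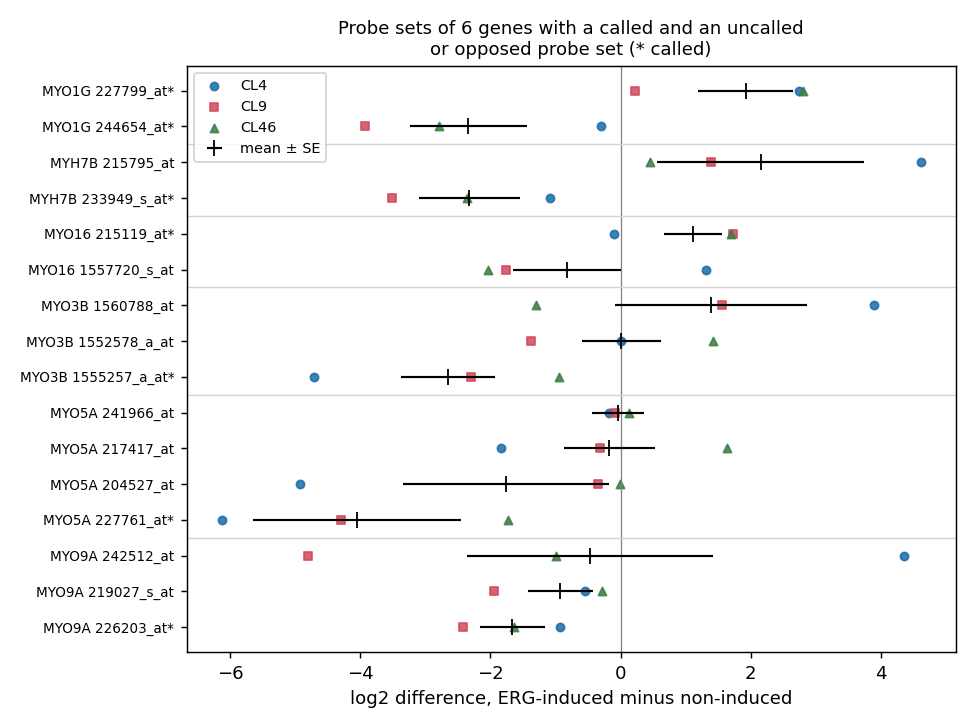
Log2 difference, ERG-induced minus non-induced (x axis), of the single probe sets (y axis) of 6 myosin genes in which some probe set was called and another was not or opposed it, with a point per clone and the mean difference ± SE of the fit. The pair of MYO1G stands at 1.92 and -2.34, and only 1 of 4 probe sets of MYO5A, at -4.05, was called.

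The essential light chains stiffen the neck of the heavy chain, and 0 of 5 were called. MYL4, the atrial and embryonic form, had 0.11, 0.36 and 0.33 in ERG-induced arrays, against -0.53, -0.22 and -0.17 in non-induced arrays, with no overlap. Its mean difference of 0.57 (SE 0.24, adjusted p = 0.411) was under the fold of 2, and its 4 probe sets lay together at 0.46 to 0.62. MYL6, the general non-muscle form, stood at 0.59 (SE 0.39) and MYL6B at 0.25 (SE 0.24), the smallest of the group. MYL1, of fast skeletal muscle, had the largest, -1.03 (SE 0.82), with clone differences of -0.96, -2.15 and 0.0077. MYL3, the ventricular form that partners MYH7, stood at -0.35 (SE 0.97).

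Of the 8 regulatory light chains, 0 were called, and 6 lay below 0. MYL12B, a non-muscle form, had -0.032, -0.93 and -0.24 in ERG-induced arrays, all below 0.067, 0.032 and 0.26 in non-induced arrays (difference -0.52, SE 0.32, adjusted p = 0.559). MYL12A, its near copy, stood at -0.22 (SE 0.29), and a probe set annotated to both, 201318_s_at, at -0.48 (SE 0.30). MYL5 stood at -0.49 (SE 0.45) and MYL11, of fast skeletal muscle, at 0.32 (SE 0.58). MYL9, the smooth muscle form, stood at -0.30 (SE 0.67). MYL2, the ventricular form that partners MYH7, stood at -0.45 (SE 0.79), with -1.60, 0.55 and -0.30 in the clones. MYL7, the atrial form that partners MYH6, had the largest difference of the group, 0.65 (SE 0.44), with 0.87, -0.56 and 1.63, and MYL10 the smallest, -0.16 (SE 0.61).

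Phosphorylation of regulatory light chains is set by kinases such as ROCK1, ROCK2 and MYLK and by a phosphatase whose targeting subunit is PPP1R12A. Of 25 measured genes of this system, 0 were called higher and 4 lower (16%), against 3.12% and 6.32% of all genes, and the median difference was 0.0027. CDC42BPA, a myosin kinase downstream of CDC42, had -0.64, -1.16 and -0.97 in ERG-induced arrays, against 0.50, 0.38 and 0.44 in non-induced arrays (difference -1.36, SE 0.25, adjusted p = 0.192). ROCK1 had -0.26, -1.20 and -0.65 in ERG-induced arrays, against 0.98, 0.56 and 0.49 in non-induced arrays (difference -1.38, SE 0.34, adjusted p = 0.235). In both kinases each clone fell by more than 1 log2 unit. ROCK2 stood at -1.95 (SE 0.70) and the phosphatase subunit PPP1R12A at -1.12 (SE 0.34), so that kinases and a subunit of the opposing phosphatase were called lower together. With each clone left out in turn, ROCK1 and CDC42BPA kept their calls; ROCK2 lost its call without CL4 (-2.47) or CL46 (-2.15) and with no moderation of the variances, and PPP1R12A without CL9 (-0.96) or CL46 (-1.09) and also under quantile normalization (-0.93). MYLK, the calmodulin-dependent light chain kinase, stood at 0.59 and was not called.

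**Figure D5:**
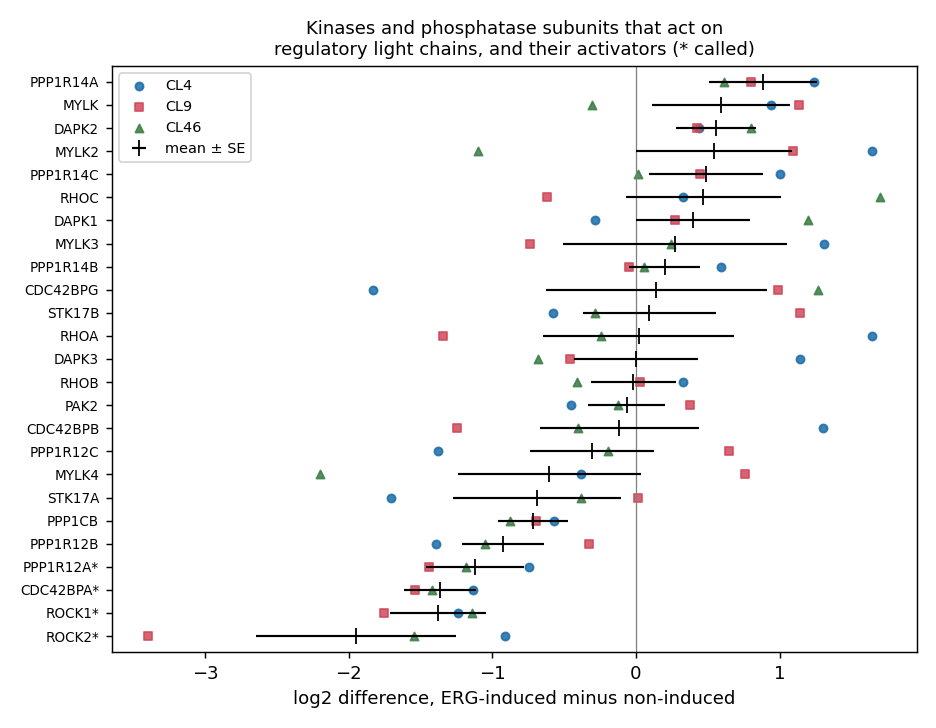
Log2 difference, ERG-induced minus non-induced (x axis), of 25 genes that set the phosphorylation of myosin regulatory light chains (y axis), ordered by their mean, with a point per clone and the mean difference ± SE of the fit. The called genes, ROCK2, ROCK1, CDC42BPA and PPP1R12A, lie at the low end between -1.95 and -1.12, with every clone below 0.

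Of 20 measured partners of sarcomeric myosin in thick and thin filaments, 2 were called higher (10%) and 4 lower (20%), against 3.12% and 6.32% of all genes, and the median was 0.16. LMOD2, a cardiac leiomodin that elongates thin filaments, stood at 3.75 (SE 1.43), with 6.49 and 4.65 in CL4 and CL46 and 0.11 in CL9. MYOM3, an M-band protein, stood at 1.40 (SE 0.48). TNNC2, the fast skeletal troponin C, stood at -3.05 (SE 1.00), NEB, the thin filament protein nebulin, at -1.92 (SE 0.61), and the filament-capping tropomodulins TMOD2 and TMOD3 at -2.47 (SE 0.74) and -1.33 (SE 0.39). Each of these 6 lost its call with at least 1 of the clones left out, LMOD2 without CL4 (2.38) or CL46 (3.30) and MYOM3 without CL9 (0.78) or CL46 (1.43), and both were uncalled with the clone as a block. With no moderation LMOD2, MYOM3 and TNNC2 were not called, and LMOD2 had no probe set left when those of a median below 1 were dropped. Of 8 actins and tropomyosins, ACTA2, the smooth muscle actin, was called lower at -1.58 (SE 0.40) and 0 were called higher. The call of ACTA2 was lost without CL4 (-1.39), and without probe sets of a median below 1 its direction turned, to 0.84 with no call. Of 29 cargo adaptors and partners of unconventional myosins, 0 were called higher and 2 lower. These were RAB27A, which recruits MYO5A to melanosomes, at -1.47 (SE 0.42), uncalled without CL4 (-1.49) or CL46 (-1.28), and RAB11FIP2, an adaptor of MYO5B, at -1.82 (SE 0.29, adjusted p = 0.192). Among 11 filament cross-linkers, 4 calmodulin-like genes and 5 myosin chaperones, 0 were called.

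Other markers of the cells that use these myosins gave the following counts, beside 3.12% of all genes called higher and 6.32% lower. Of 6 measured cardiac markers, 0 were called, with NPPA at -0.11, TNNI3 at 0.17, NKX2-5 at -1.02 and RYR2 at 1.81. The mean log2 ratio over the 6 ran from -0.49 to 0.59 in ERG-induced arrays and from -0.96 to 0.19 in non-induced arrays. Of 10 skeletal markers, 0 were called, with means from -0.28 to 0.21 in ERG-induced arrays and -0.42 to 0.01 in non-induced arrays. Of 5 smooth muscle markers, ACTA2 was called lower, with the turn of direction given above, and 0 were called higher, with means from -0.62 to -0.25 in ERG-induced arrays and -0.36 to 0.24 in non-induced arrays. Of 7 myeloid markers, which belong to cells that use MYO1F, 0 were called, with means from -0.07 to 0.47 in ERG-induced arrays and -0.32 to 0.05 in non-induced arrays. Of 8 megakaryocyte markers, 2 were called higher and 0 lower: the platelet receptor chains GP1BA at 2.38 (SE 0.49, adjusted p = 0.2) and ITGB3 at 1.23 (SE 0.41), both of which the study lists. ITGB3 was uncalled without CL9 or CL46 and with the median over probe sets (1.11), and stood at 0.50, uncalled, without _x_at and _s_at probe sets. Of the 8, 7 lay above 0, at a median difference of 1.13. The list was chosen with earlier results of these data known, and the study lists some of its genes as over-expressed from these arrays. The means of the 8 ran from -0.49 to 1.15 in ERG-induced arrays and from -1.24 to -0.30 in non-induced arrays. Of 5 erythroid markers, the lineage K562 cells are closest to, 0 were called, with means from -0.48 to 0.12 in ERG-induced arrays and from -0.26 to 0.36 in non-induced arrays. The ranges of the 2 groups overlapped for each of these marker lists. Within clones, the mean of the megakaryocyte markers was higher in the ERG-induced array by 0.89 in CL4, 0.27 in CL9 and 2.39 in CL46, that of the myeloid markers by 0.25, 0.26 and 0.42, and that of the skeletal markers by 0.14, 0.19 and 0.59. For the cardiac markers the differences in CL4, CL9 and CL46 were -0.68, -0.05 and 1.54, so the clones did not share a direction. The same held for the smooth muscle markers, at -0.46, -0.86 and 0.11, and for the erythroid markers, at 0.0080, -0.23 and -0.24. All arrays were of K562 clones, and whether the marker differences and the myosin differences belong together was not tested.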

How the data were processed

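RNA of 3 K562 pTRE-ERG clones with and without DOX was measured by the authors on the Affymetrix U133 Plus 2.0 platform. The deposited values are linear ratios of each probe set to its median over the 6 arrays, made by the authors with GeneSpring; how background and array brightness were handled earlier was not given in the sources used here. In 50737 of 54675 probe sets this median equalled 1 within 1e-05. Only the number of arrays can be given as a limit of precision.

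The ratios were taken to log2 as they stood, 62 control probe sets were left out, and values were averaged over the probe sets with 1 symbol in the platform annotation. Probe sets with several symbols stayed out of the gene values. The groups were compared across all genes and across all probe sets with limma 3.58.1, run under R 4.3.3 with the data.table package at 1.17.8. Its lmFit and eBayes functions were used two-sided, without a trend, with Benjamini-Hochberg adjustment over all features; the procedure was tested on simulated data. The study states a fold of 2 and p under 0.05 without saying whether p was adjusted; a gene was called here at 2-fold or more with unadjusted p under 0.05, beside an adjusted p under 0.05. The members, gene lists and subfamilies were chosen with earlier results of these data known. Named with values were called members, MYO1F, the members with the largest and smallest absolute difference of each subfamily, genes with called and uncalled or opposed probe sets, and up to 4 called genes of each list by p; other genes were named after their values were seen. Chromosomal order and promoters came from RefSeq (GRCh38.p14), where all 51 symbols matched.

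The pairing of arrays comes from the shared clone. Deviations from the group mean in both arrays of a clone correlated across genes at 0.04 in CL4, 0.05 in CL9 and 0.03 in CL46. Alternatives were the clone as a block, centred arrays, quantile normalization, no moderation, other thresholds, each clone left out, the median over probe sets, and dropping probe sets of median below 1 or with a suffix _x_at or _s_at; for the lists these were added after seeing the data.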

Additional observations from a re-analysis of the deposited data

How the results depend on the processing

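With no moderation, 0 myosin genes were called lower, 3 and 2 myosin probe sets were called higher and lower, 369 genes of all were called higher, and 2 genes of the lists were called higher. With the clone as a replicate block, 4 myosin genes were called higher and 2 lower, and the block changed no other call of a myosin gene than those of MYO1H and MYH16. Removing probe sets with a median below 1 gave 2 myosin genes called lower, MYH3 and MYO1G. At an adjusted p under 0.05, 0 myosin genes, probe sets, list genes or genes of all were called in either direction. Leaving out each clone in turn gave 2 to 6 myosin genes higher and 0 to 1 lower, 3 to 7 and 2 to 8 myosin probe sets, 678 to 720 and 1005 to 1305 of all genes, 4 to 8 and 6 to 8 genes of the lists, and 2 to 4 light chain phosphorylation genes lower. Without CL9, 6 myosin genes were called higher, with MYH13, MYL7 and MYO1H added, and 0 lower; without CL46 MYO5A was called lower in place of MYH3. Of the 617 genes called higher and 1250 called lower, 67.0% were lower; with centred arrays these were 749 and 999 (57.2%), and under quantile normalization 848 and 923 (52.1%), where the median of all genes was 0.11 and not -0.029 and 7 list genes were called higher. Myosin calls were 3 and 1 under both scalings. Without _x_at and _s_at probe sets MYH7 had no probe set left and MYO16 was called higher, so that the count was again 3.

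Of the 51 myosin genes, 23 turned direction under at least 1 setting, 0 of them called. Among the 18 that were called or had the largest or smallest difference of a subfamily, 7 turned. MYH11 stood at -0.090 without probe sets of a median below 1. MYH7B stood at 0.020 with centred arrays, 0.12 under quantile normalization, and 2.15 without _x_at and _s_at probe sets. MYL10 stood at 0.011 under quantile normalization and 0.59 without those suffixes. MYO19 stood at -0.083 and MYO5B at -0.15 with the median over probe sets, and MYO5B at -0.31 without probe sets of a median below 1. With each clone left out in turn, MYH11 ranged from -0.00089 to 0.26, MYH7B from -1.01 to 0.41, MYL10 from -0.62 to 0.77, MYO10 from -0.29 to 1.12, MYO19 from -0.34 to 0.33, MYO1C from -0.0016 to 0.25 and MYO5B from -0.53 to 0.43. The cause was not tested. The ratios hold no brightness, so signal over background gives no limit here.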
